A study of Homo sapiens with 2 samples.

Results

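Collagen genes were examined in RNA-seq of Stage 6 cells, the last stage of a stepwise pancreatic differentiation that yields insulin-expressing cells among others. They were chosen by name as genes whose symbol is COL, a type number, A and a chain number, which gave 42 members among 55797 genes. Both libraries were made from H1, a widely used line of human embryonic stem cells, and neither was sorted for a marker, so each holds the whole mixture of cells. Whether both came from the same culture is not given in the sources used here. RNA of the live library was taken straight from fresh cells with the RNeasy kit. The processed library came from cells that went through MARIS, in which cells were fixed in 4% PFA, permeabilized, stained with antibodies and passed through a sorter with every cell collected, before RNA was released with a modified RecoverAll kit. The comparison addresses how the RNA of handled cells compares, gene by gene, with that of fresh cells. With 1 library per condition there was no replicate, no test and no SE, and every difference below is between these libraries. The level of a gene is its FPKM, a fragment count scaled to exon length and to library size, and its precision is the range between the lower and upper bound that the authors deposited with it. Those bounds describe each library alone, and their confidence level is not given in the sources used here.

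Collagens are trimeric proteins of the extracellular matrix whose chains wind around each other through long repeats of glycine followed by a pair of other residues. Fibrillar collagens (types I, II, III, V, XI, XXIV and XXVII) form or nucleate the banded fibrils of connective tissue and cartilage. Type IV forms the sheet-like network of basement membranes, and types XV and XVIII are proteoglycans of the basement membrane zone. The other members decorate fibrils (the FACIT types IX, XII, XIV, XVI, XIX, XX, XXI and XXII), form beaded microfibrils (type VI), anchor the basement membrane of skin (type VII), build hexagonal lattices (types VIII and X) or span the plasma membrane (types XIII, XVII, XXIII and XXV). In the pancreas, epithelium and islets rest on basement membranes, and mesenchymal cells are the usual source of fibrillar collagen.

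Gene structure is given here as a description of the classes. It does not test them, because the classes follow known collagen types. The exon sizes counted were chosen beforehand as those of a fibrillar helix. In the transcript with the longest coding sequence of each gene (GENCODE 44 on GRCh37), the longest unbroken run of glycine triplets spanned a median of 338 triplets in the 10 fibrillar genes, from 216 in COL24A1 to 343 in COL3A1. It spanned 39.5 triplets at the median in the 8 basement membrane genes, from 30 to 66, where the repeat is interrupted. In the 24 other genes the median was 56.5, and 113 was reached by COL9A1, COL9A2, COL9A3, COL21A1 and COL22A1. Internal coding exons of 45, 54 or 99 bases, or of 2 or 3 times 54 bases, the sizes typical of a fibrillar helix, made up 78.7% of 563 such exons in fibrillar genes, 16.5% in basement membrane genes, 26.0% in the other genes and 3.54% of 161210 exons over 20564 coding genes.

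Type IV genes lie in head-to-head pairs, and both expressed pairs are transcribed away from a stretch that is shown here because it lies within 250 bases upstream of both RefSeq starts. The stretches were read from the RefSeq promoter table (GRCh38.p14), matched exactly once on their chromosome in GRCh37, and are given 5′ to 3′ on the plus strand with GRCh37 positions. Bases covered by an exon in GENCODE 44 were left off. Capitals mark CCAAT or its reverse complement ATTGG, and GGGCGG, the GC box.
COL4A2 and COL4A1, chr13:110959505-110959604: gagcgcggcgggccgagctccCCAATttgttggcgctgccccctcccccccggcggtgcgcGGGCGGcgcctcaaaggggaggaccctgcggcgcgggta
COL4A5 and COL4A6, chrX:107682818-107682938: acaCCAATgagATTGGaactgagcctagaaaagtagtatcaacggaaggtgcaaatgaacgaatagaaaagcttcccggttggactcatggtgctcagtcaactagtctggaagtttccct
The first stretch had a GC content of 78.0%, with 1 CCAAT and 1 GC box on the plus strand and no TATAAA on either strand. The second had a GC content of 44.6%, with CCAAT once on each strand and neither a GC box nor TATAAA. The RefSeq starts of COL4A2 and COL4A1 are 127 bases apart, and those of COL4A5 and COL4A6 are 380 bases apart. In the authors' annotation the first stretch lies outside COL4A1 and inside the COL4A2 locus, upstream of the RefSeq start of COL4A2, and the second lies in neither gene.

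In windows from 250 bases before to 50 after the start, the RefSeq promoter set used here held 39 entries for 30 of the 42 members. On either strand, CCAAT was found in 30.8% of these windows and in 34.6% of all 35116 promoter windows, GGGCGG in 22 of 39 and in 15786 of 35116, and TATAAA in 20.5% and 11.5%. Among the classes, GGGCGG was in 6 of 7 fibrillar windows (from 5 genes), 7 of 10 basement membrane windows (8 genes) and 9 of 22 other windows (17 genes). A match of letters is a description of the sequence and not a binding site. The set used held no entry for COL14A1, COL1A1, COL1A2, COL20A1, COL22A1, COL2A1, COL3A1, COL5A2, COL6A1, COL6A5, COL8A1 and COL9A3.

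The libraries were similar in summed FPKM and in genes detected. FPKM is already scaled to library size, so its sum does not measure depth. FPKM summed to 510713 over all genes in the live and 499398 in the processed library, and 16004 and 15957 genes reached an FPKM of 1. Low values fell on steps worth 0.0100 FPKM kb per fragment in the live and 0.0107 in the processed library, so that the processed library was the shallower by 1.07 times. Over genes at an FPKM of at least 1 in both, the processed value was a median of 0.932 times the live value, a shift of -0.10 on the log2 scale. INS, the insulin gene, was at 98.3 FPKM in live and 121 in processed cells, both unsorted mixtures. All 7 endocrine markers and all 5 epithelial markers examined reached an FPKM of 1.

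Collagen mRNA in these cultures was dominated by the products of a pair of genes. The 42 members summed to 1080 FPKM in live cells (1054 to 1105 from the bounds) and 1069 in processed cells (1039 to 1099), which was 0.211% and 0.214% of all FPKM. COL2A1, the chain of type II collagen of cartilage, notochord and vitreous, held 40.9% of the collagen total in live and 36.7% in processed cells. COL18A1, the basement membrane proteoglycan from which endostatin is released, held 21.6% and 22.8%. Fibrillar genes together held 52.5% in live and 47.7% in processed cells, basement membrane genes 31.6% and 32.9%, and the other genes 15.9% and 19.4%. Levels here are per length, so shares are of FPKM and not of fragments. In this mixture of cells, a gene's level from many weakly expressing cells cannot be told apart from that of few cells with strong expression.

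**Figure D1:**
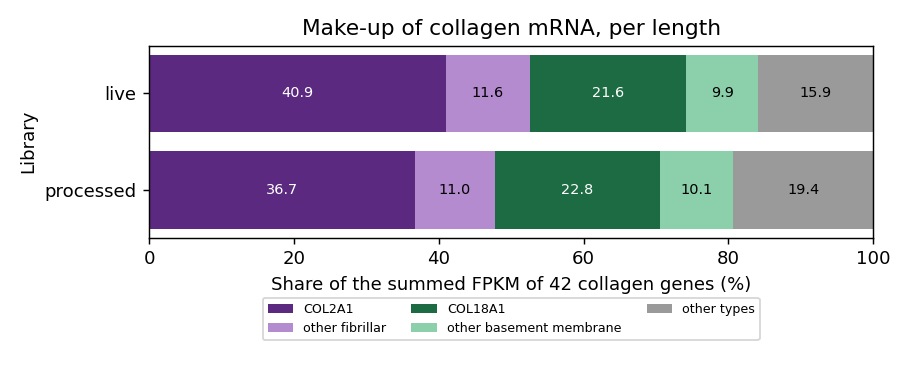
Share of the summed FPKM of 42 collagen genes (horizontal axis, percent) in the live and the processed library (1 library each), split into COL2A1, the other fibrillar genes, COL18A1, the other basement membrane genes and all other types. COL2A1 takes 40.9% in live and 36.7% in processed cells, and the other types 15.9% and 19.4%.

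Of the 42 members, 29 reached an FPKM of 1 in at least 1 library, 17 an FPKM of 10 and 2 an FPKM of 100. All 42 had status OK in both libraries. The 29 divided into 8 of 10 fibrillar, 5 of 8 basement membrane and 16 of 24 other genes. COL13A1 and COL23A1 passed only by their processed value and COL17A1 only by its live value, so these had to differ, and counts are also given over the 26 members that reached 1 in both.

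**Figure D2:**
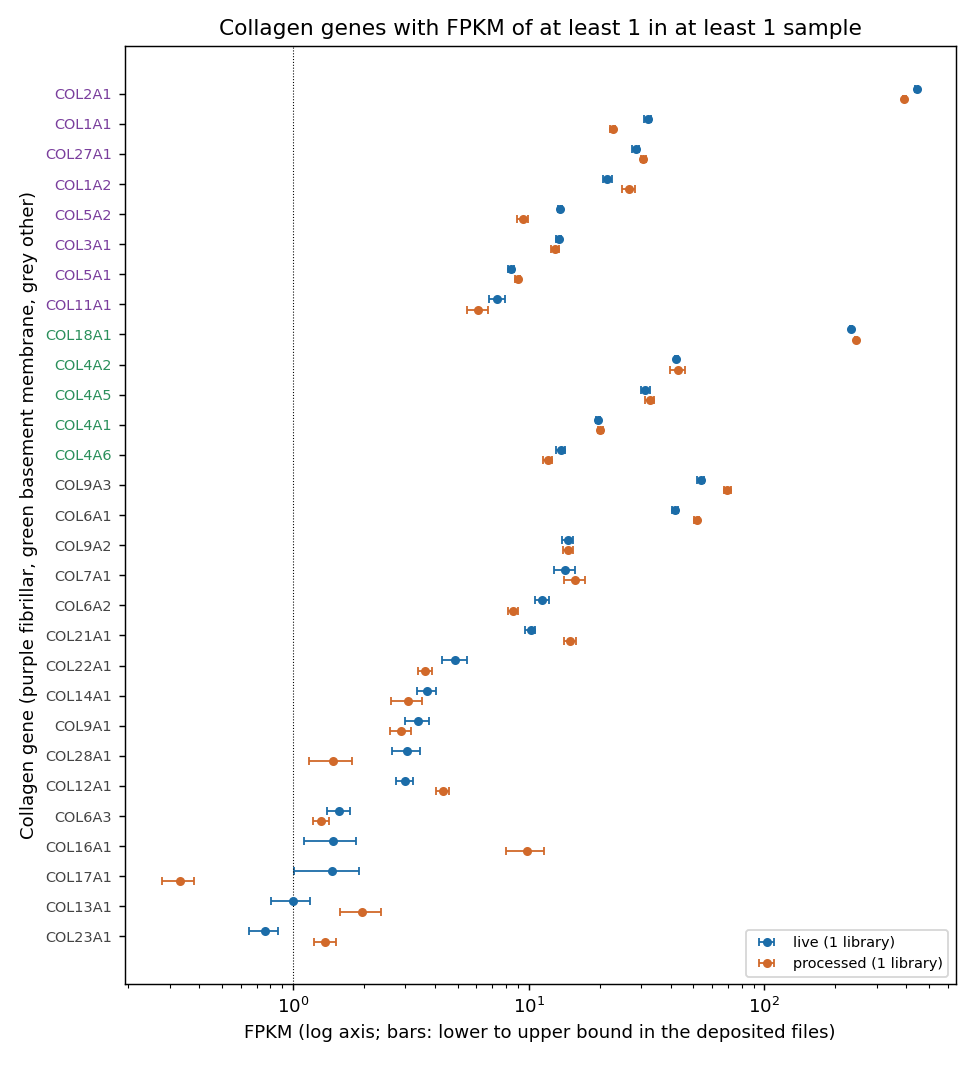
FPKM (horizontal log axis) of the 29 collagen genes that reached 1 in either library, by class and live level. Points are single libraries (blue live, orange processed), bars run from the deposited lower to the upper bound, and the dotted line marks an FPKM of 1. COL16A1 stands apart, at 1.48 in live and 9.79 in processed cells, and COL2A1 and COL18A1 lie above all other members in both.

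Before the log2 ratio of processed to live was taken, 1 was added to each FPKM, which makes differences of low genes look smaller than they are. Of the 29 members, 1 (3.45%) was more than 2-fold higher in processed cells, compared with 6.57% of 17326 genes that passed the same filter and 3.15% of 13573 protein-coding genes. None was more than 2-fold lower, compared with 6.19% of all and 3.53% of protein-coding genes. The bounds were separate with the processed value higher for 11 of 29 members (37.9%), where the share was 28.1% of all and 25.6% of protein-coding genes. They were separate with the processed value lower for 9 members (31.0%), where the share was 43.7% of all and 47% of protein-coding genes, and they overlapped for the remaining 9. Over the 26 members that reached 1 in both libraries, bounds were separate for 9 higher (34.6%) and 8 lower (30.8%), compared with 25.6% and 43.6% of 14635 genes. The median log2 ratio was 0.02 over the members, with quartiles at -0.21 and 0.30, and -0.09 over all genes, with quartiles at -0.39 and 0.25. The 29 members were at a median of 13.4 FPKM in live cells. Under the same filter the median was 8.46 over all genes and 11.1 over protein-coding genes. When processed values were scaled by the median ratio, the members with separate bounds became 13 higher and 7 lower. That scaling raises every processed value 1.07 times. The shares of all genes under it were not computed, so these counts have no matching background. The medians under it were 0.12 over all members, -0.01 for fibrillar, 0.13 for basement membrane and 0.16 for other genes. Across the 29 members, the log2 ratio had a Spearman's rho of -0.15 with transcript length, 0.25 with GC content and 0.18 with mean FPKM, given as a description over genes that share both libraries.

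**Figure D3:**
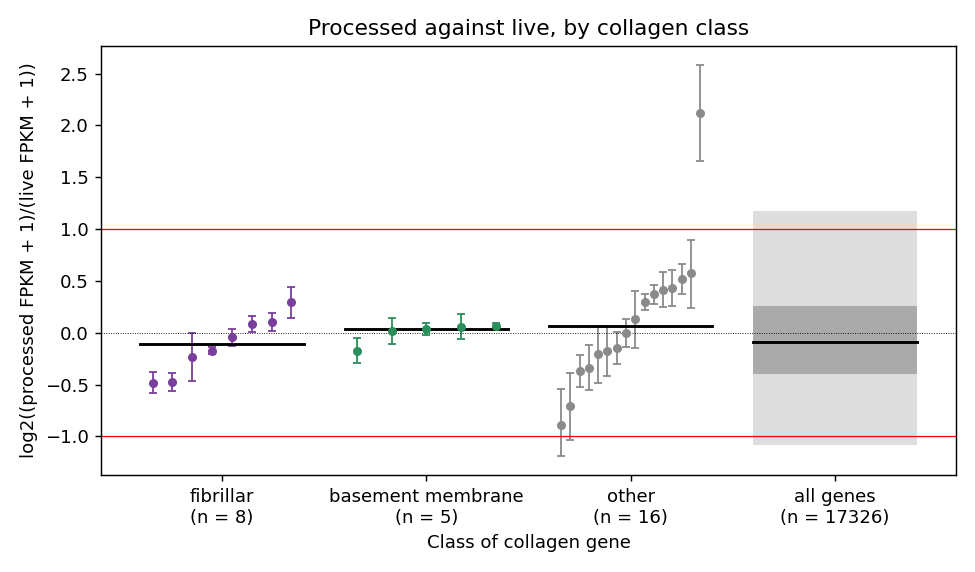
Log2 ratio of processed to live FPKM, with 1 added to each (vertical axis), of each collagen gene by class. Points are genes and bars run from the lowest to the highest ratio that the deposited bounds allow. Black lines are medians, red lines mark 2-fold, and the grey boxes give the 25th to 75th and the 5th to 95th percentile of 17326 genes. The 5 basement membrane genes lie between -0.17 and 0.06, while the fibrillar genes lie between -0.48 and 0.30 and the other genes between -0.89 and 2.12.

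The fibrillar genes had a median log2 ratio of -0.11, with 3 higher and 4 lower with separate bounds and 1 overlapping. These are 37.5% and 50%, near the 28.1% and 43.7% of all genes. COL2A1 (ENSG00000139219.13, chromosome 12, 48366748 to 48398269) was at 442 FPKM in live cells (437 to 447) and 392 in processed cells (388 to 397), a log2 ratio of -0.17 with separate bounds. It ranked 167th of all genes in live and 174th in processed cells, and its level was 13.8 times that of COL1A1 in live cells.
COL27A1, a fibrillar chain of cartilage and other tissues, was next below COL1A1 among fibrillar genes in live cells, at 28.5 FPKM (27.5 to 29.5) in live and 30.7 (29.8 to 31.5) in processed cells. COL3A1, whose chain forms the homotrimer of elastic tissues and vessel walls, was at 13.4 and 13.0 FPKM with overlapping bounds. COL11A1, whose chain nucleates cartilage fibrils with type II, was at 7.35 FPKM (6.77 to 7.92) in live and 6.11 (5.48 to 6.74) in processed cells, just separate. These genes and COL5A1 had log2 ratios from -0.23 to 0.10, and COL1A1, COL1A2 and COL5A2 lay farther from 0, at -0.48, 0.30 and -0.48.

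Chains that assemble into the same trimer were compared within each library. Type I collagen, the main fibril of skin and bone, is built of more COL1A1 than COL1A2 chains. COL1A1 (chromosome 17, 48260650 to 48278993) was at 31.9 FPKM (30.8 to 33.0) in live and 22.7 (22.1 to 23.2) in processed cells, 1.41-fold higher in live. COL1A2 (chromosome 7, 94023873 to 94060544) differed in the other direction, at 21.5 FPKM (20.6 to 22.5) in live and 26.6 (24.9 to 28.3) in processed cells. The ratio of COL1A1 to COL1A2 was therefore 1.48 in live cells (1.37 to 1.61 from the bounds) and 0.852 in processed cells (0.781 to 0.932), so that the order of the chains was opposite in the libraries. Type V, a minor component that sets fibril width, also had chains closer in processed cells. COL5A2 was at 13.6 FPKM in live and 9.43 in processed cells, and COL5A1 at 8.41 and 8.98. COL5A2 was 1.61 times COL5A1 in live cells (1.53 to 1.70) and 1.05 times in processed cells (0.966 to 1.14), where the range includes equal levels.

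The basement membrane genes had a median log2 ratio of 0.03 and a range from -0.17 to 0.06. Bounds were separate for 1 gene higher and 1 lower (20% each, against 28.1% and 43.7% of all genes), and overlapped for 3. Their median distance from 0 was 0.06, against 0.20 for fibrillar and 0.37 for other genes, differences between classes that were not tested. Over all genes that distance was 0.34, and over protein-coding genes 0.29. The classes also differed in level, as all 5 basement membrane genes reached an FPKM of 10, against 6 of 8 fibrillar and 6 of 16 other genes. The other genes include COL13A1, COL17A1 and COL23A1, which had to differ. Scaling by the median ratio moved the median log2 ratio to 0.13 for basement membrane and -0.01 for fibrillar genes. Under it COL18A1, COL4A2, COL4A5 and COL4A1 lay farther from 0, at 0.16, 0.12, 0.16 and 0.13, and COL4A6 nearer, at -0.08. The distances from 0 thus depend on the scaling, and their class medians under it were not computed. COL18A1 (ENSG00000182871.10, chromosome 21, 46825052 to 46933634) was at 234 FPKM (231 to 236) in live and 244 (241 to 247) in processed cells, a log2 ratio of 0.06 with separate bounds. COL4A1 (chromosome 13, 110801318 to 110959496) and COL4A2 (chromosome 13, 110958159 to 111165374), the chains found in nearly all basement membranes, share the GC-rich stretch printed above. COL4A1 was at 19.6 and 20.1 FPKM and COL4A2 at 42.3 and 42.9 FPKM in live and processed cells, both with overlapping bounds. COL4A2 was 2.15 times COL4A1 in live cells (2.08 to 2.24) and 2.13 times in processed cells (1.93 to 2.34), whereas the trimer holds more COL4A1 than COL4A2 chains. COL4A5 (chromosome X, 107683074 to 107940775), a chain of kidney and epithelial basement membranes, was at 31.2 and 32.6 FPKM with overlapping bounds. Its neighbour COL4A6 (chromosome X, 107386780 to 107682727) was at 13.7 FPKM (13.0 to 14.3) in live and 12.0 (11.5 to 12.6) in processed cells, so that COL4A5 exceeded COL4A6 by 2.29 times in live and 2.71 times in processed cells.
The remaining type IV pair, COL4A3 and COL4A4, whose chains join COL4A5 in the glomerular membrane, stayed below 0.1 FPKM in both libraries. COL15A1, the close relative of COL18A1, was at 0.293 FPKM in live and 0.00203 in processed cells. Among basement membrane genes, expression was thus carried by COL18A1 and by the outward-facing pairs of chromosomes 13 and X.

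Some of these genes overlap other expressed genes, and whether the authors counted by strand is not given in the sources used here. The loci of COL4A1 and COL4A2 overlap each other by 1338 bases at their 5′ ends. COL18A1 overlaps SLC19A1 by 20149 bases, a gene on the opposite strand at 8.11 FPKM in live and 5.02 in processed cells, and COL4A6 overlaps ATG4A by 11122 bases, at 2.52 and 0.918 FPKM. COL9A3 overlaps TCFL5 by 45 bases. Of the 29 expressed members, these 5 overlap another gene at an FPKM of at least 1, and the part of the overlaps in the values was not tested.

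**Figure D4:**
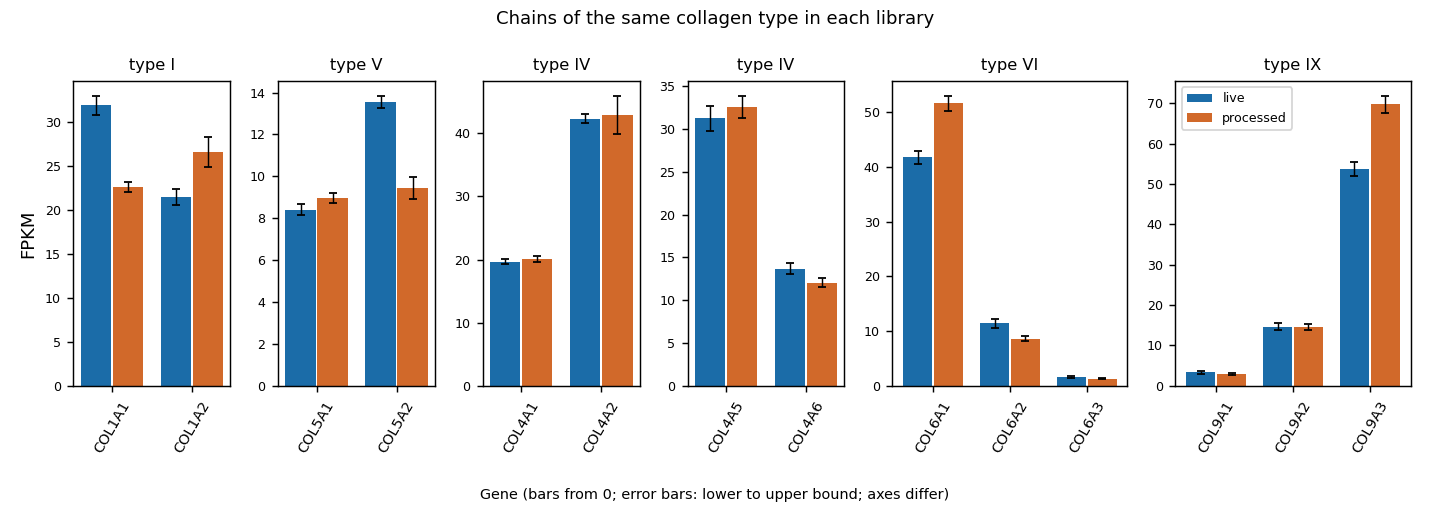
FPKM (vertical axes from 0, scaled per panel) of the chains of types I, V, IV, VI and IX in the live (blue) and processed (orange) library, 1 library each, with error bars from the deposited lower to the upper bound. COL1A1 exceeds COL1A2 in live cells only, while COL4A2 stays at 2.15 and 2.13 times COL4A1.

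The other collagen genes had a median log2 ratio of 0.06. Bounds were separate for 7 higher and 4 lower (43.8% and 25%, against 28.1% and 43.7% of all genes), and overlapped for 5. Over the 13 of them that reached 1 in both libraries, 5 were higher and 3 lower, and the median was -0.0018. Over all genes that reached 1 in both, the shares were 25.6% and 43.6%. Type IX, a FACIT that coats type II fibrils in cartilage, is made of 3 chains with very unequal levels. COL9A3 was at 53.6 FPKM (51.9 to 55.3) in live and 69.7 (67.5 to 71.9) in processed cells, COL9A2 at 14.7 and 14.6, and COL9A1 at 3.39 and 2.87. COL9A3 was thus 3.66 times COL9A2 in live and 4.76 times in processed cells, and the bounds of COL9A2 and COL9A1 overlapped between the libraries. The 6 genes COL2A1, COL9A1, COL9A2, COL9A3, COL11A1 and COL27A1, which are known from cartilage, together summed to 550 FPKM in live cells and 516 in processed cells. COL2A1 alone held 442 and 392 FPKM of these sums, so the sums mostly follow that gene. The median log2 ratio of the 6 was -0.09. Bounds were separate for 2 higher (COL9A3 and COL27A1) and 2 lower (COL2A1 and COL11A1), 33.3% each way against 28.1% and 43.7% of all genes.
SOX9, the transcription factor of cartilage and of pancreatic progenitors, was at 82.4 and 85.3 FPKM, whereas the cartilage matrix genes ACAN and MATN1 were at 1.42 and 0.0354 FPKM in live cells and 1.84 and 0.0914 in processed cells. Of the other chondrogenic markers examined, MATN3 was at 3.16 and 3.86 FPKM and LECT1 at 1.79 and 2.02. ACAN, MATN1 and LECT1 were picked after their values were seen, and whether the culture holds cartilage cells was not tested.

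Type VI, whose chains form microfibrils around cells, also differed by chain. COL6A1 was at 41.7 FPKM (40.6 to 42.9) in live and 51.6 (50.2 to 53.0) in processed cells, and its neighbour on chromosome 21, COL6A2, at 11.4 (10.6 to 12.2) and 8.60 (8.15 to 9.04). The ratio of COL6A1 to COL6A2 was 3.66 in live cells (3.33 to 4.03) and 6.00 in processed cells (5.55 to 6.50), ranges that do not meet. COL6A3, the third chain of the main trimer, was at 1.57 and 1.32 FPKM with overlapping bounds, lower than COL6A1 by 26.6 times in live and 39.1 times in processed cells. COL7A1, which builds the anchoring fibrils of the skin, was at 14.3 and 15.8 FPKM with overlapping bounds.

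COL16A1 (ENSG00000084636.11, chromosome 1, 32117848 to 32169920), a FACIT found near fibrils and microfibrils, was the member past 2-fold. It was at 1.48 FPKM (1.11 to 1.84) in live and 9.79 (7.98 to 11.6) in processed cells, 6.63-fold higher, with a log2 ratio of 2.12. From the step of 1 fragment and the length of its longest coding transcript, these levels stand for about 773 and 4783 fragments, and its locus overlaps no other expressed gene. The other FACIT genes lay within 2-fold. COL21A1, expressed in vessel walls, was at 10.2 FPKM (9.68 to 10.7) in live and 15.0 (14.1 to 15.9) in processed cells, and COL12A1, of dense connective tissue, at 2.98 and 4.31, both with separate bounds. COL22A1, of tissue junctions, was at 4.87 and 3.64 FPKM with separate bounds, and COL14A1, which limits fibril width, at 3.69 and 3.06 with overlapping bounds. Of the 8 expressed FACIT genes, bounds were separate and higher in processed cells for 4 and lower for 1, where the shares of all genes were 28.1% and 43.7%.

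Membrane-spanning collagens were at low levels. COL13A1, of muscle and other cell adhesions, was at 0.995 and 1.97 FPKM and COL23A1 at 0.759 and 1.37, while COL17A1, the hemidesmosomal collagen of epithelia, was at 1.46 FPKM (1.01 to 1.91) in live and 0.330 (0.279 to 0.381) in processed cells. COL17A1 was 4.42-fold higher in live cells as a plain ratio but had a log2 ratio of -0.89 with 1 added to each value. With 0.1 added instead it was -1.86, past 2-fold. COL28A1, a collagen of peripheral nerve, was at 3.04 FPKM in live and 1.47 in processed cells, a log2 ratio of -0.71 with separate bounds.

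The 13 members below an FPKM of 1 in both libraries were COL4A3, COL4A4, COL5A3, COL6A5, COL6A6, COL8A1, COL8A2, COL10A1, COL15A1, COL19A1, COL20A1, COL24A1 and COL25A1. Those given by value here were picked after their values were seen. Levels of the 13 reached at most 0.628 FPKM in live and 0.604 in processed cells, and bounds were separate with the processed value higher for 4 and lower for 7. Of 13277 genes below 1 in both libraries and above 0 in at least 1, the shares were 14% higher and 40.2% lower. COL24A1, the low fibrillar relative of COL27A1, was at 0.438 and 0.219 FPKM, and COL5A3 at 0.194 and 0.0899. COL10A1, the marker of hypertrophic cartilage, was at 7.23e-10 FPKM in live cells, with an upper bound of 0.00878, and at 0.204 FPKM in processed cells, which stands for about 63.3 fragments. Its locus overlaps NT5DC1, which was at 18.5 FPKM in live and 11.4 in processed cells. COL15A1 stood for about 148 fragments in live and 0.955 in processed cells, and COL20A1 for about 29.6 in live cells while listed at 0 in processed cells.

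The genes that make, secrete and read collagen were examined as a list of 46, of which 34 reached an FPKM of 1. Past 2-fold were 2 with the higher value in processed cells and 2 with the lower, or 5.88% each way, against 6.57% and 6.19% of all genes. Over protein-coding genes the shares were 3.15% and 3.53%. Bounds were separate and higher for 10 (29.4%) and lower for 18 (52.9%), against 28.1% and 43.7% of all genes, and overlapped for 6. Over protein-coding genes these shares were 25.6% and 47%. The median log2 ratio of the 34 was -0.14, against -0.09 for all and -0.11 for protein-coding genes. PPIB, a prolyl isomerase, was at 211 and 226 FPKM and P4HB, the shared subunit of prolyl hydroxylase, at 192 and 176. SERPINH1, the collagen chaperone, was at 107 and 100 FPKM and FKBP10, another isomerase of collagen folding, at 67.9 and 58.2. None of the 11 expressed hydroxylation genes was past 2-fold, where 6.57% of all genes were higher and 6.19% lower (3.15% and 3.53% of protein-coding genes).
MIA3, which loads bulky collagen into transport carriers, was at 21.1 FPKM (19.3 to 22.9) in live and 8.33 (7.87 to 8.79) in processed cells, a log2 ratio of -1.25. Among genes of propeptide cleavage, the protease BMP1 was at 17.3 and 13.5 FPKM and the enhancer PCOLCE at 9.98 and 11.1. ADAMTS2, which removes the amino-terminal propeptide, was at 4.64 FPKM (3.95 to 5.33) in live and 1.20 (1.10 to 1.29) in processed cells, and PCOLCE2 at 4.52 (3.86 to 5.19) and 12.8 (11.7 to 13.9), log2 ratios of -1.36 and 1.32. The cross-linking genes LOXL1 and LOXL3 were at 16.1 and 12.3 FPKM in live and 16.8 and 18.2 in processed cells.
Of the receptors, ITGB1, the shared integrin subunit, was at 130 and 99.2 FPKM and DDR1, an epithelial collagen receptor kinase, at 61.0 and 46.4. ITGA1, the partner of ITGB1 for basement membrane collagen, was at 1.20 FPKM (1.06 to 1.33) in live and 4.23 (3.41 to 5.05) in processed cells, a log2 ratio of 1.25. The collagen-degrading MMP14 was at 69.4 and 62.7 FPKM and MMP2 at 15.8 and 13.8, while the interstitial collagenases MMP1, MMP8 and MMP13 were listed at 0 in both libraries.

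Markers of cells that could carry the collagens were examined beside them. The 9 mesenchymal and fibroblast markers summed to 38.8 FPKM in live and 48.7 in processed cells. Of the 8 that reached an FPKM of 1, processed values were past 2-fold higher for 3 and past 2-fold lower for 1. Over all genes the shares were 6.57% and 6.19%, and over protein-coding genes 3.15% and 3.53%. Bounds were separate for 4 higher and 3 lower, where the shares of all genes were 28.1% and 43.7%. POSTN and TWIST1 are in both counts of higher genes, but passed the filter by their processed value alone and had to be higher. Without them, DCN was past 2-fold higher and PDGFRB past 2-fold lower. Bounds were then separate and higher for DCN and FBN1, and lower for LUM, PDGFRA and PDGFRB. The highest in live cells, LUM and PDGFRA, were at 12.7 and 8.03 FPKM in live and 8.33 and 5.56 in processed cells. The highest in processed cells, DCN and FBN1, were at 4.18 and 5.06 FPKM in live cells. DCN was at 12.4 FPKM in processed cells, and FBN1 was higher there by a log2 ratio of 0.99. POSTN was at 0.964 and 3.52 FPKM and TWIST1 at 0.574 and 2.93, while PDGFRB was at 4.26 and 1.17. DCN, POSTN and TWIST1 had log2 ratios of 1.37, 1.20 and 1.32, and PDGFRB of -1.28. Among the muscle markers that follow, DES passed the filter by its processed value alone. The 6 smooth muscle and pericyte markers summed to 124 and 111 FPKM, led by TAGLN at 98.3 and 88.4 and RGS5 at 10.1 and 5.11. Of the 5 that reached 1, bounds were separate for 2 higher and 3 lower, against 28.1% and 43.7% of all genes. The higher genes were CNN1 and DES, of which DES had to be higher. CNN1 was at 9.62 and 13.1 FPKM, ACTA2 at 6.10 and 2.43, a log2 ratio of -1.05, and DES at 0.0528 and 1.58, a log2 ratio of 1.29. The 5 chondrogenic markers summed to 88.8 and 93.1 FPKM, nearly all of it SOX9, with MATN3 at 3.16 and 3.86.
The endothelial markers examined summed to 2.37 and 2.31 FPKM, with KDR at 1.21 and 0.857 and TEK at 0.591 and 0.850, and EMCN was listed at 0 in processed cells. Epithelial markers were far higher, with KRT8 at 1679 and 1479 FPKM and KRT18 at 998 and 959. Of the endocrine markers, CHGA was at 1794 and 1741 FPKM, with a failed status in the processed library, and SST at 243 and 266. The part of these cell types in the collagen levels was not tested.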

How the data were processed

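RNA-seq of 1 live and 1 processed sample was used. Libraries were poly-A selected per the study's methods. The authors mapped 80 nt paired-end reads on GRCh37/hg19 using STAR 2.2.0c with GENCODE 14, and deposited FPKM with lower and upper bounds and a status per gene, made with Cufflinks 2.0.2 (versions from the submitters' processing notes). Counts were not analysed here, so precision rests on the authors' bounds.

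Values were joined by gene identifier, and 1 was added to locus starts, which count from 0. A log2 ratio used a pseudocount of 1 FPKM, and genes that reached an FPKM of 1 in either sample were kept. The step of 1 fragment was the fullest bin (5.0e-04 wide) of FPKM times transcript length less 170 nt in kb. With 1 sample per condition no test was possible. All members that reached an FPKM of 1 were named. For the other lists the 2 highest live genes per subgroup and those past 2-fold were named. Lineage markers (INS, ACAN, MATN1, LECT1, FBN1 and CNN1), chosen after their values were seen, were also named. Members and lists were chosen with earlier results of these data known. Another gene that matches by name is not reported here, and PECAM1 was not analysed here. Gene type, exons and lengths came from GENCODE 44 on GRCh37. Calculations were tested on simulated data. Alternatives covered pseudocount, filter, status, scaling and class. Python 3.11.15, numpy 2.4.6, pandas 2.3.3 and matplotlib 3.10.9 were used.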

Additional observations from a re-analysis of the deposited data

How the results depend on the processing

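Counts past 2-fold were small and depended on how low values were handled. At a pseudocount of 0.1, 2 members were past 2-fold, 1 of them lower (COL17A1), and without a pseudocount 3, of which 2 were lower (COL17A1 and COL28A1). When genes had to reach an FPKM of 10 in either sample, 0 members were past 2-fold, because COL16A1 does not reach that level, and 2 genes of the synthesis and handling list were. Members with separate bounds numbered 31 without a filter, 16 of them lower, and 11 when an FPKM of 10 was required, 6 higher and 5 lower. The shares of all genes under these filters were not computed. Without a filter, the median log2 ratio was -0.019 over all members and -0.0085 over basement membrane genes. For the other genes it was 0.22 when an FPKM of 10 was required and -0.0018 when both samples had to reach 1, an alternative chosen after seeing the data. With type IV alone as basement membrane class, its share differed by 0.166 percentage points between the libraries and that of the other genes by 4.66. A median counted as moved when it changed sign or shifted by 0.1 or more, and a share by 1 percentage point or more. Among the 29 expressed members, scaling by the median ratio turned the sign of COL9A2 (0.09) and COL3A1 (0.05), and scaling to the same sum that of COL9A2 (0.03). Status changed no result on the members. No paired analysis was possible because each condition has 1 sample. What can be said of the members below an FPKM of 1 is limited by the single library per condition. For some, such as COL20A1 with about 29.6 fragments in live cells, it is also limited by depth. Others stood for more fragments, such as COL25A1 with about 492 in live cells.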

Other observations

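A collagen gene outside the naming pattern was well expressed. EMID2 (ENSG00000160963.9, chromosome 7, 101006101 to 101202304), which carries the identifier now named COL26A1, was at 26.6 FPKM (25.9 to 27.4) in live and 18.7 (18.2 to 19.2) in processed cells, a log2 ratio of -0.49 with separate bounds. In live cells its level lay between those of COL27A1 and COL1A2.

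Antisense genes and pseudogenes named after collagens were mostly at or near 0. COL4A2-AS1, antisense to COL4A2, was at 0.253 FPKM in live and 0.643 in processed cells, with separate bounds. The pseudogene COL6A4P2 differed in the other direction, with bounds of 1.06 to 1.94 FPKM in live cells and 0.680 FPKM (0.459 to 0.901) in processed cells. COL5A1-AS1 was listed at 0 in both libraries.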
